A study of Mus musculus with 14 samples.

Results

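This account covers 36 genes of the endoplasmic reticulum (ER), the compartment in which secreted and membrane proteins are folded, and of the first steps of secretion. They were taken as a list of names by function. Each gene was represented by its brightest probe set (highest mean over 14 arrays), and all 36 were among the 11815 genes tested. Total RNA had been hybridised to Affymetrix mouse arrays from 12 osteosarcomas, numbered 1 to 12 here in accession order (malignant bone tumours that form bone-like matrix), from 1 tumour labelled rhabdomyosarcoma (a sarcoma of the muscle lineage) and from mc3T3. All 13 tumours were from p53+/- mice, which are heterozygous for the p53 tumour suppressor gene. Groups were read from the sample titles, since the free-text description names mc3T3 for every sample. Age is not given in the labels used here, nor is it said that each tumour came from a separate animal, so p-values measure the spread between these samples. The mc3T3 line is an untreated, non-tumorigenic mouse osteoblast line, grown here in alpha-MEM with 10% serum, and served as the control with 1 array. It is a clonal line in culture, whereas the tumours are whole tissue that holds several cell types. In such bulk samples, fewer cells of a type and less RNA per cell cannot be told apart.

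Proteins enter the ER through the Sec61 channel, are folded by chaperones and disulfide isomerases, and leave in COPII-coated vesicles; those that fail to fold are pulled back into the cytosol and destroyed, a route called ER-associated degradation (ERAD). When unfolded proteins build up, the sensors Ern1 (IRE1), Eif2ak3 (PERK) and Atf6 start the unfolded protein response, which raises chaperone and ERAD genes through spliced Xbp1 and cleaved Atf6, and stress genes such as Ddit3 (CHOP) and Trib3 through Atf4. Osteoblasts secrete collagen in bulk, and the related factor Creb3l1 (OASIS) is known to support collagen synthesis in bone. The sensors act by splicing, cleavage and phosphorylation, none of which an mRNA level on these arrays measures.

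Many ER chaperone promoters carry the ER stress response element (ERSE), the letters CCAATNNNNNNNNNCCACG, which Atf6 binds together with NF-Y. Promoter sequences from RefSeq (build GRCm38.p6) were found for 31 of the 36 genes, and the 250 bases before each start were searched on both strands. The exact element was present in 9 of the 31, against 0.13% of the 27025 genes in the table (35 genes). Of the folding genes it was found in 7 of 14. The matches are shown because they are the feature that several of these genes share beyond their function, written along the strand of the element with the fixed letters in capitals:
Hspa5: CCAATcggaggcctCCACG
Calr: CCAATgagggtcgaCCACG
Derl3: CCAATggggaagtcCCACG
Hsp90b1: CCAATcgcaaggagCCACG
Hsp90b1: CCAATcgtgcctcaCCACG
Canx: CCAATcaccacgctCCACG
Pdia6: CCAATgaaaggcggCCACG
Dnajc3: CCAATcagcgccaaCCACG
Creld2: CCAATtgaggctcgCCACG
Syvn1: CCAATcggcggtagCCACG

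The 10 matches lay between 212 and 26 bases before the start, and Hsp90b1 carried a pair of them, 1 on each strand. The ERSE-II letters ATTGGNCCACG (0.037% of all genes) were found in Herpud1 alone, which also held the amino acid response element TGATGNAA bound by Atf4 (3.91% of all genes). The Xbp1-type element TGACGTGG (0.603% of all genes) was found in Sec24d alone. None of these matches is shown to be a site in these tumours, and a window without a match says nothing of the factor. The promoters of Atf6, Creb3l1, Derl1, Hyou1 and Manf were not analysed here. The upstream windows of Hspa5 (chr2:34771840-34772089, plus strand), Hsp90b1 (chr10:86705445-86705694, minus strand) and Herpud1 (chr8:94386179-94386428, plus strand) follow, each 5′ to 3′ along the gene. The fixed letters of every match are in capitals, and so is the free base of the amino acid response element in Herpud1 (matches on the other strand read as the reverse complement):
Hspa5: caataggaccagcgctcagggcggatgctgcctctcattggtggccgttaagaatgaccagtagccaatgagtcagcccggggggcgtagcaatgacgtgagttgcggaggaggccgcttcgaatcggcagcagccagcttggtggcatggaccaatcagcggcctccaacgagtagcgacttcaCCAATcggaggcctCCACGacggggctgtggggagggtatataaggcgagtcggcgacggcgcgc
Hsp90b1: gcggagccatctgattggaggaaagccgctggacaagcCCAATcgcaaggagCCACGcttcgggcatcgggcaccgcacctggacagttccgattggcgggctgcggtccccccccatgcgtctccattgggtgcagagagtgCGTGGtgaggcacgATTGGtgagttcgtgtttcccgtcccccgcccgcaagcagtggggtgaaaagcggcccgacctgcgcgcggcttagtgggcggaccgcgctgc
Herpud1: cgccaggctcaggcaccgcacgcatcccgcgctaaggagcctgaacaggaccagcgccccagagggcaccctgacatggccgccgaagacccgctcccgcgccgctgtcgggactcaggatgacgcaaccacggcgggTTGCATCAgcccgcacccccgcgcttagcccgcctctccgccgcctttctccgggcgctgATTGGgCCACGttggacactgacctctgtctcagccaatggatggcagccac

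The arrays were alike in overall signal. The median signal was 67.1 to 111 units, and beta-actin probe sets at the 3' and 5' ends, whose ratio rises as RNA degrades, gave ratios of 1.32 for mc3T3, 1.42 to 2.13 over the osteosarcomas and 1.24 for the other tumour. The summed signal of 6 macrophage markers was 43124 to 94364 over the osteosarcomas, against 99287 for the other tumour and 314 for mc3T3. For 6 osteoclast markers it was 61822 to 133279, 1882 and 4078 in the same order, for 5 endothelial markers 3310.1 to 10946, 5874 and 131, for 5 fibroblast markers 24308 to 69835, 34524 and 15243, for 5 chondrocyte markers 895 to 16641, 1394 and 3426, and for 3 plasma and B cell markers 228 to 8832, 6961 and 119. Of 6 osteoblast markers, the tumour labelled rhabdomyosarcoma was lower in 6, and the line mc3T3, though high in Col1a1 (62259) and Sp7 (1515), had Ibsp at 37.4 and Dmp1 at 62.8. The muscle regulators Myod1 (39.4) and Myog (65.9) and the muscle filament gene Des (88.6) were all under 200 units in the tumour labelled rhabdomyosarcoma, so those markers did not bear out its label. They are 3 of 9 listed skeletal muscle markers. The summed signal of the 9 was 1286.7 in this tumour, 1045.6 to 208970.4 over the osteosarcomas and 645.8 in mc3T3. This tumour lay below every osteosarcoma in 1 of the 9 and above in 0.

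**Figure D1:**
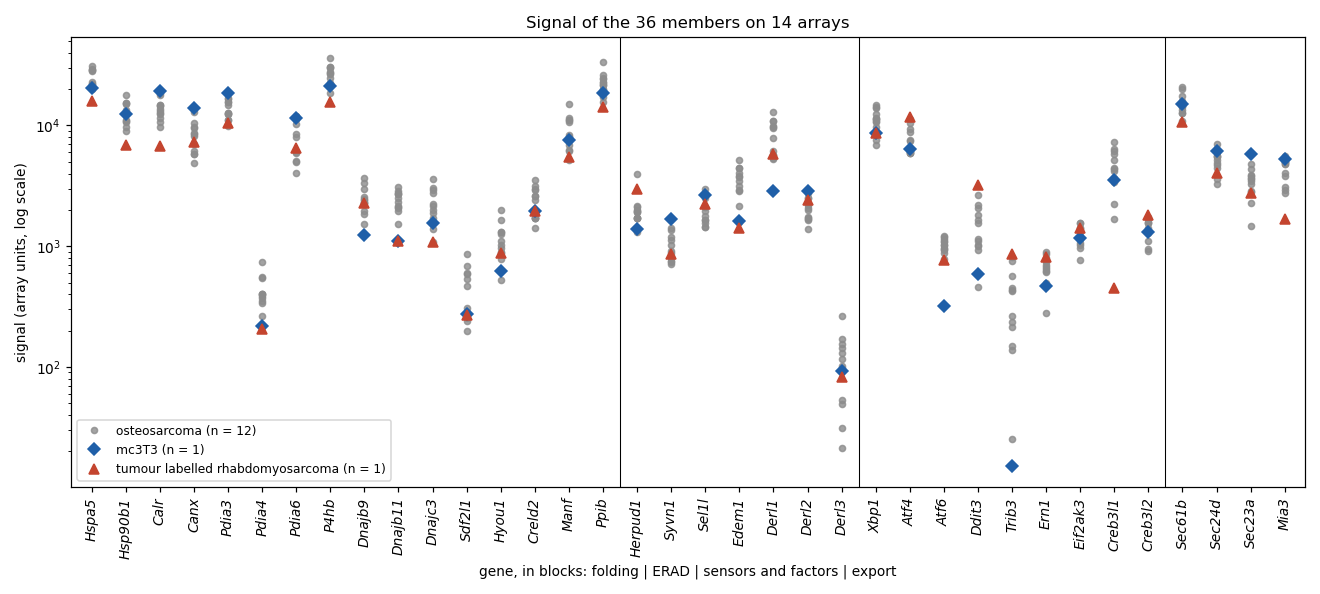
Signal of the 36 genes on 14 arrays, on a log axis, in blocks by role. Grey points are the 12 osteosarcomas, blue diamonds mc3T3 and red triangles the tumour labelled rhabdomyosarcoma; Creb3l1 in the latter (448) and Trib3 and Atf6 in mc3T3 (15 and 319) lie below all grey points.

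The first comparison, osteosarcoma against the cultured osteoblast line, asks which of these genes differ between tumour tissue and the control that the design names. Of the 36 genes, 2 were higher in osteosarcoma and 0 lower, by limma with Benjamini-Hochberg adjustment over 11815 genes (called where the adjusted two-sided p was under 0.05 and the log2 difference was 1 or more). Over all genes tested, 8.59% were higher and 4.58% lower by the same rule. At an unadjusted p under 0.05, limma gave 6 members higher and 1 lower, against 15.3% and 12.3% of all genes. The median difference of the members was 0.22 on the log2 scale, and that of all genes was -0.02. All differences are of log2(signal + 30) and are given ± SE; the scale understates changes of low signals. With 1 control array, the error comes from the spread of the 12 osteosarcomas and assumes that the line would vary as they do.

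Among the sensors, Atf6 rose in osteosarcoma. Its signal was 777 to 1211 (median 1026) in the 12 osteosarcomas and 319 in mc3T3, so that every tumour lay above the line, with a difference of 1.59 ± 0.27 (adjusted p = 0.00112). A second probe set of Atf6 was also higher (1.29, adjusted p = 0.0166 over probe sets), while its dimmest differed by 0.22 (adjusted p = 0.762). Among the 4 osteosarcomas whose identifiers start with c, the difference was 1.56 and did not pass (adjusted p = 0.0747, the highest of 25 alternatives; the lowest was 0.000635). The other 2 sensors were closer to the line. Ern1 had 280.5 to 889 (median 683) against 470.3, a difference of 0.44 ± 0.43 (adjusted p = 0.552), and Eif2ak3 had 776 to 1559.9 (median 1317) against 1159, a difference of 0.07 ± 0.34 (adjusted p = 0.917).

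The factors downstream of the sensors overlapped with mc3T3, except Trib3. Xbp1, the target of Ern1 splicing, had 6925 to 14748 (median 11332) in osteosarcoma and 8594 in mc3T3, and its probe sets do not separate the spliced form. Atf4 had 5860.2 to 11412 (median 6932) against 6435. Ddit3, the apoptosis-promoting factor CHOP, had 462 to 2637 (median 1362) against 593: 11 tumours lay above the line and osteosarcoma 7 below it. Trib3, a pseudokinase that Atf4 and Ddit3 induce, was at 15 in mc3T3 and 25.2 to 819 (median 347) in osteosarcoma. Although each tumour was above mc3T3, the tumours were spread over a 32.5-fold range and the difference of 2.85 ± 1.03 (adjusted p = 0.0844) did not pass. The mc3T3 signal is under the minimum of the filter, and the difference ran from 1.84 to 4.13 over 25 alternatives, the ends of which came from adding 100 and 1 units in place of 30. Without osteosarcoma 7, whose Trib3 signal was 25.2, it passed (adjusted p = 0.0141, against a highest of 0.316 over 25 alternatives). The bone-associated factor Creb3l1 had 1689 to 7349 (median 4409.5) against 3554, and its relative Creb3l2, best known from cartilage, 912 to 1737 (median 1479) against 1311; neither differed beyond the spread of the tumours (adjusted p = 0.829 and 0.933).

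In the folding group, 1 of 16 genes passed, where 8.59% of all genes were called higher. Dnajb11 (ERdj3), an Hsp40 co-chaperone that hands unfolded chains to Hspa5, had 1531 to 3108 (median 2412) in osteosarcoma and 1102 in mc3T3, with every tumour above the line. Its difference of 1.08 ± 0.33 (adjusted p = 0.0436) was near the threshold, and leaving out osteosarcoma 1, 2, 3, 5, 6, 8, 9 or 10 in turn ended the call (adjusted p = 0.0525 to 0.06). Dnajb9 (ERdj4), which keeps Hspa5 bound to Ern1, also lay above mc3T3 in every tumour (1514 to 3688, median 2356, against 1236) but did not pass, at 0.94 ± 0.38 (adjusted p = 0.122). The third Hsp40 gene, Dnajc3 (p58IPK), overlapped by its brightest probe set, with 1084 to 3619.8 (median 2089) against 1553. In its second probe set mc3T3 (1014.6) lay below every tumour (lowest 1098.4), a difference of 1.02 (limma adjusted p = 0.242 over probe sets). In its other probe sets the line lay inside the range of the tumours.

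Hspa5 (BiP), the central Hsp70 of the ER, was close to the line by its brightest probe set. Its signal was 19954 to 31098 (median 22595) in osteosarcoma and 20433 in mc3T3, a difference of 0.25 ± 0.30 (adjusted p = 0.64). In its second probe set mc3T3 (9235.9) lay below every tumour (lowest 9771.4), a difference of 0.59 (limma adjusted p = 0.26 over probe sets). Its dimmest differed by -0.01, with the line inside the range. Hsp90b1 (Grp94), the Hsp90 of the ER, had 8951 to 17771 (median 12580.4) against 12511. Hyou1, which exchanges nucleotide on Hspa5, had 528 to 1987 (median 1065) against 623, and Sdf2l1, a partner of Dnajb11, 199 to 857 (median 390.0) against 272. For these 4 genes the mc3T3 value of the brightest probe set lay inside the range of the tumours.

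The lectin chaperones and their partner isomerase lay on the other side. Calr (calreticulin) had 9685 to 18534 (median 13426) in osteosarcoma and 19285 in mc3T3, Canx (calnexin) 4865 to 12978 (median 8343) and 14035, and Pdia3 (ERp57), the disulfide isomerase that works with both, 9966 to 16837 (median 12715) and 18421. By these brightest probe sets the line was above all 12 tumours in each. The differences of -0.52 ± 0.33, -0.84 ± 0.43 and -0.47 ± 0.31 did not pass (adjusted p = 0.325, 0.225 and 0.353). Other tested probe sets differed by -0.70 and -0.30 for Calr, -0.54 and -0.27 for Canx and -0.34 for Pdia3. In all of these except the first of Calr, mc3T3 lay inside the range of the tumours. The remaining isomerases overlapped: Pdia4 had 219 to 738 (median 392) against 220.1, Pdia6 4012 to 12023 (median 8249.9) against 11442, and P4hb, which is also a subunit of the collagen prolyl 4-hydroxylase, 18632 to 36436 (median 27142) against 21226. So did Ppib (cyclophilin B), a prolyl isomerase of procollagen, with 15495 to 33326 (median 21952) against 18707. The same held for the stress-induced secreted proteins Creld2 (1418 to 3507, median 2501, against 1973) and Manf (5204 to 15108, median 8235, against 7545).

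Of the 7 ERAD genes none was called by limma. At an unadjusted p under 0.05, 2 were higher and 1 lower, against 15.3% and 12.3% of all genes. Derl1, part of the channel through which proteins leave the ER, had 5274 to 12803 (median 8710.4) in osteosarcoma and 2881 in mc3T3. All 12 tumours were above the line, and the difference of 1.45 ± 0.47 (adjusted p = 0.0553) did not pass; it passed without osteosarcoma 1 or 9 (adjusted p of 0.038 to 0.238 over 25 alternatives). Its 3 other tested probe sets differed by 1.23, 0.97 and 0.47. The paralogue Derl2 lay the other way, with 1399 to 2755 (median 2028) against 2859.6, as did the ubiquitin ligase gene Syvn1 (Hrd1), with 708 to 1406 (median 899) against 1667 and a difference of -0.79 ± 0.37 (adjusted p = 0.181). In both the line was above every tumour. Derl3, the third paralogue, reached 200 units on 1 array, osteosarcoma 4 (265), and passed the filter through it alone.

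The other ERAD genes overlapped with the line. Edem1, which trims mannose from misfolded glycoproteins, had 1589 to 5197 (median 3607) against 1619; its brightest probe set differed by 1.03 ± 0.48 (adjusted p = 0.178) and its second by -0.06. Sel1l, the adaptor of Syvn1, had 1431 to 2959 (median 1870.1) against 2673, and the ERAD scaffold gene Herpud1 1302 to 3952 (median 1917) against 1382. In the export group, Sec23a, a subunit of the COPII coat, had 1479 to 4836 (median 3540.4) against 5822, with the line above every tumour and a difference of -0.85 ± 0.46 (adjusted p = 0.255). Its coat partner Sec24d (3289 to 7024, median 5316, against 6159.9), the translocon subunit Sec61b (10816 to 20701, median 14679.7, against 15046) and Mia3 (TANGO1), which loads procollagen into vesicles (2749 to 5557, median 4806, against 5302), overlapped.

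In all, mc3T3 lay below the 12 osteosarcomas in 5 of the 36 genes and above them in 6; over all genes tested these shares were 21.5% and 21%. Among the 25 genes inside the range, the differences ran from -0.56 for Pdia6 to 1.13 for Ddit3. The members are few, and whether their share outside the range differs from that of all genes was not tested. The other cell types of the tumours were nearly missing from mc3T3, as the marker sums above show, and their part in these values was not tested.

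**Figure D2:**
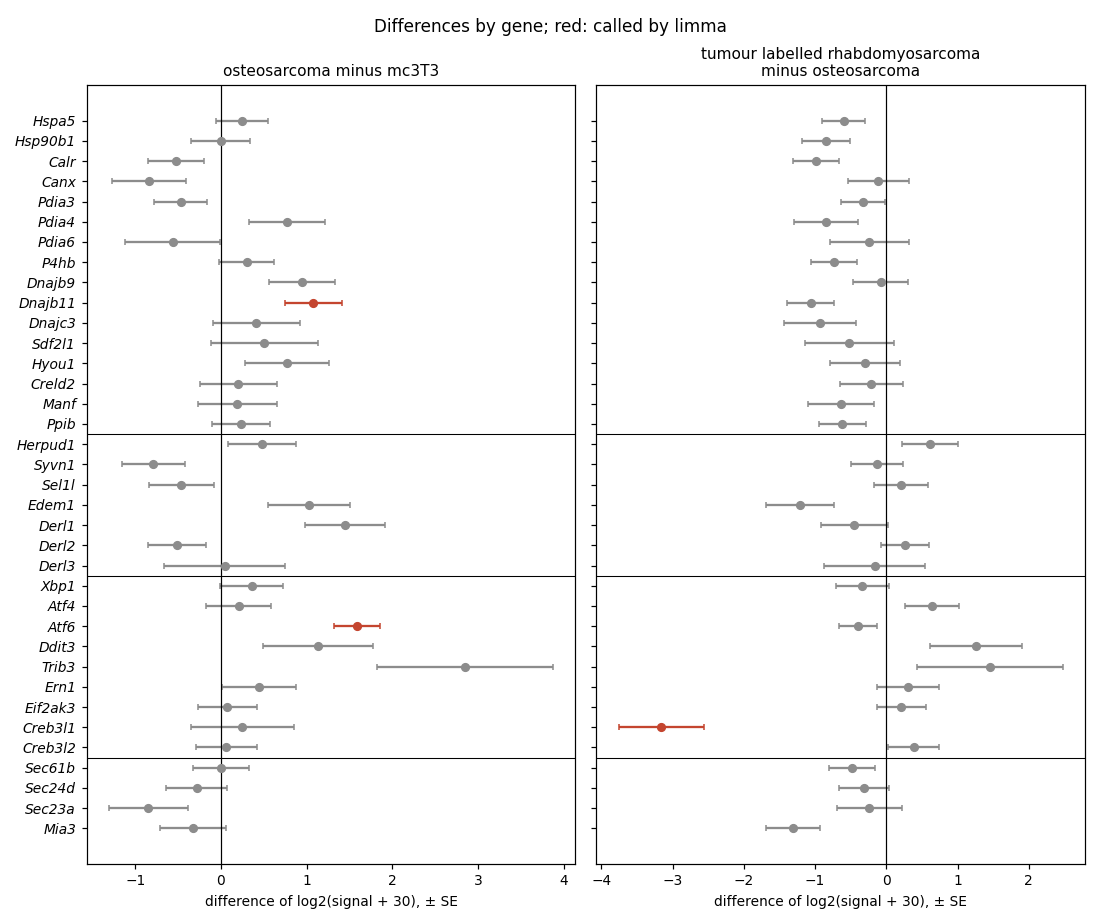
Difference of log2(signal + 30) for each of the 36 genes, ± SE, in osteosarcoma minus mc3T3 (left) and the tumour labelled rhabdomyosarcoma minus osteosarcoma (right). Red points were called by limma: Atf6 (1.59) and Dnajb11 (1.08) on the left, and Creb3l1 (-3.16) on the right.

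The second comparison set the tumour labelled rhabdomyosarcoma against the osteosarcomas, which it shares with the first. Of the 36 genes 1 was lower and 0 were higher by limma, against 1.76% and 1.19% of all genes. At an unadjusted p under 0.05, 7 members were lower and 0 higher, against 8.03% and 7.95% of all genes. The median difference of the members was -0.32 on the log2 scale, against 0.05 over all genes. This tumour was below all 12 osteosarcomas in 13 of the 36 genes and above them in 4, where 14.1% and 16.6% of all genes were. Quantile normalization of the arrays, added once the values were known, moved these to 9 below and 3 above, all of them among the 13 and the 4. Hspa5, P4hb, Ppib and Sec61b then lay inside the range of the osteosarcomas on the low side, and Trib3 on the high side.

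Creb3l1 fell in the tumour labelled rhabdomyosarcoma. Its signal was 448 there, 1689 to 7349 (median 4409.5) in the osteosarcomas and 3554 in mc3T3, and the difference from the osteosarcomas was -3.16 ± 0.60 (adjusted p = 0.0101). On that scale it is an 8.93-fold decrease. The call held under all 25 alternatives tried, with differences of -3.63 to -2.95. A single probe set represents the gene. Its relative Creb3l2 lay on the other side, at 1798, just above the highest osteosarcoma (1737), and did not pass (0.38 ± 0.35, adjusted p = 0.642).

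Collagen and the genes that fold it were set beside Creb3l1. Col1a1, the main collagen of bone, had 18690.1 against 30026 to 58684 (median 47357) and fell by 1.30 (SE 0.31, adjusted p = 0.0363). Of 13 measured genes of procollagen folding and modification, 3 fell and 0 rose by limma, against 1.76% and 1.19% of all genes. At an unadjusted p under 0.05, 8 were lower and 0 higher, against 8.03% and 7.95% of all genes. Below every osteosarcoma were 9 of the 13, against 14.1% of all genes. P4ha1, P4ha3, P3h2 and Plod1 lay inside the range of the osteosarcomas. Those that fell were Plod2, a lysyl hydroxylase (640.4 against 2209 to 10310.0, median 4423, -2.86 ± 0.71, adjusted p = 0.0432), Crtap (2510.0 against 9006 to 18930.4, median 11335, -2.21 ± 0.33, adjusted p = 0.00158) and P3h1 (669 against 1319.7 to 3628, median 2564, -1.83 ± 0.44, adjusted p = 0.0363), the last 2 being parts of the prolyl 3-hydroxylase complex. The median difference of this list was -1.41. Mia3, the procollagen export receptor, had 1687 against 2749 to 5557 (median 4806), below every osteosarcoma and mc3T3, but did not pass (-1.31 ± 0.38, adjusted p = 0.0885).

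Of the 16 chaperones and folding enzymes, 8 lay below every osteosarcoma and 0 above, where 14.1% and 16.6% of all genes did. None was called by limma. At an unadjusted p under 0.05, 4 were lower and 0 higher, against 8.03% and 7.95% of all genes. Hspa5 stood at 16029.5, Hsp90b1 at 6934 and Calr at 6744, each under the lowest osteosarcoma (19954, 8951 and 9685). Their differences were -0.60 ± 0.30, -0.85 ± 0.34 and -0.99 ± 0.33 (adjusted p = 0.359, 0.229 and 0.133). The other probe sets of these genes gave -0.83 and -0.71 for Hspa5, -0.36 for Hsp90b1, and -0.97 and -1.02 for Calr, so that every probe set was lower than the osteosarcoma mean. Those of Hspa5 and Calr were also below every osteosarcoma. The other Hsp90b1 probe set (3895.1) lay inside the range of the osteosarcomas (3368.6 to 10450.7).

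The co-chaperones Dnajb11 (1112, -1.06 ± 0.33, adjusted p = 0.11) and Dnajc3 (1075, -0.93 ± 0.50, adjusted p = 0.385) were below every osteosarcoma as well. So were the isomerases P4hb (15703, -0.73 ± 0.32, adjusted p = 0.275), Pdia4 (207, -0.85 ± 0.45, adjusted p = 0.377) and Ppib (14324, -0.62 ± 0.33, adjusted p = 0.384). The summed signal of the 16, to which the brightest probe sets contribute most, was 97398 in this tumour, 128451 to 177130.5 in the osteosarcomas and 150583 in mc3T3. The remaining 8 lay within the range of the osteosarcomas: Canx (7234), Pdia3 (10567), Pdia6 (6559.5), Dnajb9 (2272), Sdf2l1 (269.8), Hyou1 (876), Creld2 (1966) and Manf (5526). Of the 9 genes with an ERSE match, 4 were below every osteosarcoma, namely Hspa5, Hsp90b1, Calr and Dnajc3, and 5 were within the range. Over all genes 14.1% were below every osteosarcoma.

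Among the ERAD genes, Edem1 alone was below every osteosarcoma by its brightest probe set (1422, -1.21 ± 0.48, adjusted p = 0.216). Its second probe set lay inside the range (1487 against 1355.5 to 2470.3) and differed by -0.35. Herpud1 (2994), Syvn1 (867), Sel1l (2232), Derl1 (5797), Derl2 (2408) and Derl3 (82.5) were within the range. In the export group, Sec61b (10770.5) was just under the lowest osteosarcoma (10816), and Sec24d (4071) and Sec23a (2734) were within. The sensor Atf6 (767) lay just under the lowest osteosarcoma (777), with Ern1 (809.7) and Eif2ak3 (1418) inside the range and Xbp1 (8722) too. Among the 19 members inside the range, the differences ran from -0.64 for Manf to 0.62 for Herpud1.

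Atf4 and its targets Ddit3 and Trib3, the branch that runs from PERK, lay above every osteosarcoma. Atf4 had 11642 in the tumour labelled rhabdomyosarcoma, above the highest osteosarcoma by little (11412). Ddit3 had 3232 against a highest osteosarcoma of 2637, and Trib3 857 against 819. None of the 3 passed, with differences of 0.64 ± 0.38 (adjusted p = 0.429), 1.26 ± 0.64 (adjusted p = 0.36) and 1.45 ± 1.03 (adjusted p = 0.535). A second probe set of Atf4 differed by 0.12, and with the probe sets averaged Atf4 lay inside the range of the osteosarcomas.

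Of 18 measured targets of PERK and Atf4, 2 were called higher and 0 lower in this tumour by limma, against 1.19% and 1.76% of all genes. At an unadjusted p under 0.05, 6 were higher and 1 lower, against 7.95% and 8.03% of all genes. The median difference was 1.06. Above every osteosarcoma lay 11 and below 1, where 16.6% and 14.1% of all genes did. Cth, which makes cysteine from cystathionine, had 1987 against 6 to 150.3 (median 38.4), a difference of 4.84 ± 0.75 (adjusted p = 0.00214). Slc7a11, the cystine transporter, had 224 against 20.7 to 78.5 (median 45.7), at 1.74 ± 0.40 (adjusted p = 0.0278). Both genes were under 200 units, the minimum of the filter, in all 12 osteosarcomas. Slc7a11 reached that minimum on 1 array, this tumour's own (mc3T3 was at 105). It was thus tested only through the sample in which it is high, and its call is no support for a difference. The same holds for its place among the 11. Cth reached it on 2 arrays, this tumour and mc3T3 (228). The next genes were picked after their values were seen. The amino acid synthesis genes Asns (10368 against 805 to 7417, median 3098), Psat1 (5098 against 1192 to 3602, median 1561) and Phgdh (9002 against 324 to 6206, median 4143) were above every osteosarcoma and did not pass (adjusted p = 0.262, 0.232 and 0.561). The stress factor Atf3 (379.7 against 178 to 584, median 319) and the phosphatase subunit gene Ppp1r15a (773 against 427 to 1076, median 745) lay inside the range. In osteosarcoma against mc3T3 the same list had 3 genes called higher and 0 lower, against 8.59% and 4.58% of all genes. Nupr1 had 4613 to 38459.9 in osteosarcoma and 1058 in mc3T3 (3.30 ± 0.80, adjusted p = 0.0126). Vldlr, a lipoprotein receptor, had 2340.3 to 10941 against 32.3 (6.47 ± 0.64, adjusted p = 1.21e-05), and Atf3 had 178 to 584 against 11.4 (3.16 ± 0.47, adjusted p = 0.000403). The mc3T3 signals of Vldlr and Atf3 were under the minimum of 200 units, so the size of these differences depends on the 30 units added before the log.

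**Figure D3:**
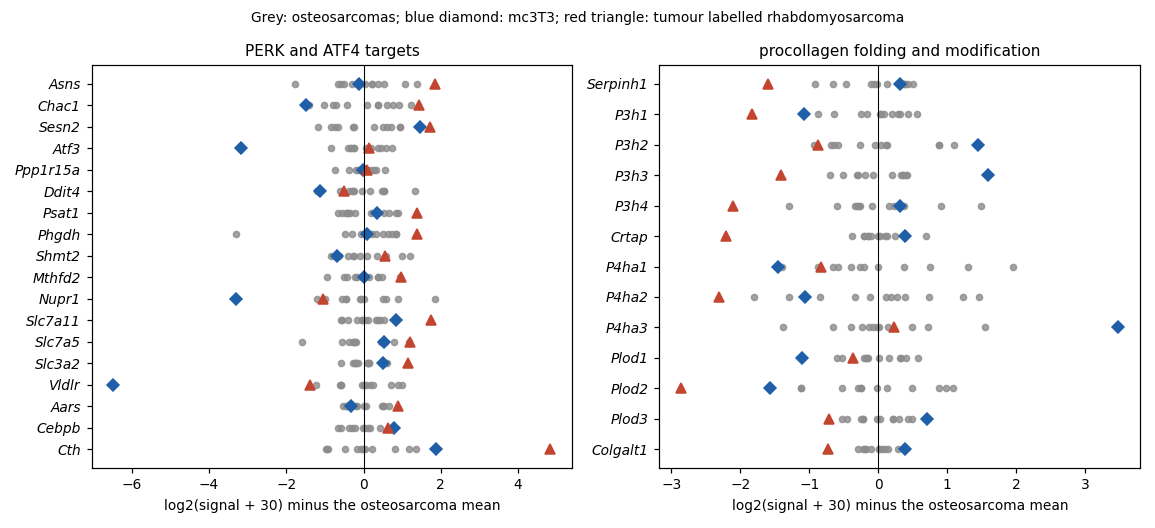
Signal of each gene on the log2(signal + 30) scale, minus the mean of the 12 osteosarcomas, for PERK and ATF4 targets (left) and for procollagen folding and modification genes (right). The red triangle of the tumour labelled rhabdomyosarcoma lies right of all grey osteosarcomas in 11 of 18 genes on the left, with Cth (4.84) farthest, and left of all of them in 9 of 13 on the right. Over all genes, this tumour lay above every osteosarcoma in 16.6% and below in 14.1%.

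In the other lists of the secretory pathway, as in the members, the called genes are read against the shares of all genes given above. In osteosarcoma against mc3T3, other ER folding genes had 3 of 23 higher (Ero1b at 1.72 ± 0.41, Sdf4 at 1.28 ± 0.32 and Erp29 at 1.24 ± 0.31) and procollagen genes 2 of 13 lower (P4ha3 at -3.48 ± 0.69 and P3h3 at -1.59 ± 0.41). Ero1b was under 200 units in mc3T3 (93.5), and P4ha3 in most osteosarcomas (median 150.1), so those sizes depend on the added 30 units too. Other ERAD genes had 1 of 16 higher (Ube2j2 at 1.15 ± 0.35), translocon and signal peptidase genes 1 of 15 (Sec11c at 2.70 ± 0.37) and ER exit genes 1 of 19 (Tmed10 at 1.17 ± 0.33). Of 9 other sensors and regulators none was called by limma in either comparison (0 higher and 2 lower, then 2 higher and 1 lower, at an unadjusted p under 0.05). The shares of all genes at that p are given above. In the tumour labelled rhabdomyosarcoma, 14.1% of all genes were below every osteosarcoma. In these lists it was 8 of the 23 folding genes, 4 of the 16 ERAD genes, 6 of the 15 translocon genes and 9 of the 19 exit genes. Over the 113 genes measured in the 7 lists, 9 were called higher and 2 lower in osteosarcoma against mc3T3 (8.59% and 4.58% of all genes were). In the tumour labelled rhabdomyosarcoma 2 were called higher and 4 lower (1.19% and 1.76% of all genes). Sec11c, a catalytic subunit of signal peptidase, was the 1 gene called in both: its signal was 3367 to 7204 (median 4313) in osteosarcoma, 672 in mc3T3 and 1543 in the tumour labelled rhabdomyosarcoma (-1.53 ± 0.37, adjusted p = 0.0358). The comparisons share the osteosarcomas, so these 2 results are not independent. Osteoblast and osteoclast markers were low in the tumour labelled rhabdomyosarcoma beside these values (6 of 6 called lower in each list), and their part in the secretory differences was not tested.

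The osteosarcomas also differed among themselves. The median SD of the members over the 12 tumours was 0.35 on the log2 scale, against 0.43 over all genes, and 14 of the 36 members exceeded the latter. Atf6 varied little (SD 0.18), as did Hspa5 (SD 0.24). Trib3 (SD 1.11), the dim Derl3 (SD 0.75), Ddit3 (SD 0.67), Sdf2l1 (SD 0.65) and Creb3l1 (SD 0.62) varied most among the members.

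Different tumours held the highest and lowest signals of different members. How often each tumour was highest or lowest over all genes was not counted. The counts that follow are therefore not set against such a share. Osteosarcoma 10 had the highest signal in 7 members, of which 6 were folding genes: Calr, Canx, Pdia4, Dnajc3, Sdf2l1 and Hyou1. Its Pdia4 was 738, Sdf2l1 857 and Hyou1 1987, against medians of 392, 390.0 and 1065. Osteosarcoma 6 was highest in 6 members, among them Herpud1 (3952), Dnajb9 (3688), Creld2 (3507) and Atf4 (11412). That tumour also had the highest summed signal of 9 skeletal muscle markers (208970.4, median 6443), whose part was not tested.

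Osteosarcoma 4 was at the other end, with the lowest signal in 10 members. They spanned the groups: Hspa5 (19954), P4hb (18632), Dnajb11, Sdf2l1 and Manf in folding, Xbp1 (6925) and Eif2ak3 (776) among sensors and factors, and Sec24d (3289), Sec23a (1479) and Mia3 (2749) in export. The same array had the lowest Col1a1 (30026), Serpinh1 (12579), Alpl (5833) and Sp7 (1158) of the osteosarcomas, and the highest summed macrophage (94364) and osteoclast (133279) markers; their part in its low secretory genes was not tested. In folding, Dnajb9 (3347) and Pdia6 (10248) were above the osteosarcoma medians (2356 and 8250) on this array. Its beta-actin ratio was 1.85. Osteosarcoma 7 was lowest in 7 members, including Ddit3 (462) and Trib3 (25.2), and osteosarcoma 8 had the lowest Creb3l1 (1689).

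**Figure D4:**
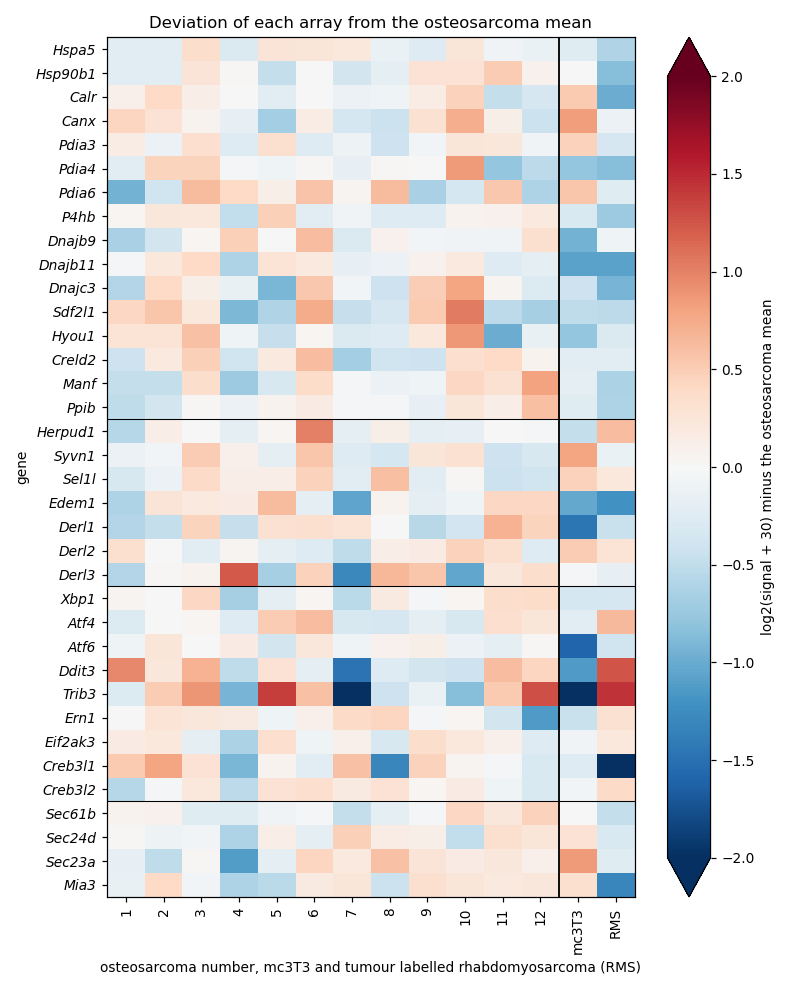
Deviation of each array from the osteosarcoma mean for the 36 genes, in units of log2(signal + 30), for osteosarcomas 1 to 12, mc3T3 and the tumour labelled rhabdomyosarcoma (RMS); colours end at 2 in either direction. Osteosarcoma 4 is blue in Hspa5, P4hb, Dnajb11, Sdf2l1, Manf and the export genes but red in Dnajb9 and Pdia6. Osteosarcoma 10 is red in Calr, Canx, Pdia4, Dnajc3, Sdf2l1 and Hyou1 but blue in Pdia6. Creb3l1 in RMS stands at -3.16.

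Of 10 pairs of genes compared across the 12 osteosarcomas, 2 passed on Pearson's r after Benjamini-Hochberg adjustment over the 10 (two-sided permutation test, 100000 permutations); for Ddit3 and Trib3, Spearman's rho did not. Both lie in the Atf4 branch. The 10 pairs were chosen with earlier results of these data known, so their p-values are not those of pairs fixed in advance. Ddit3 and Trib3 had r = 0.774 and rho = 0.692 (permutation p = 0.00386 and 0.0151; adjusted 0.0199 and 0.0757), and r was 0.808 without osteosarcomas 1 and 7, the farthest from the median of Ddit3. Atf4 and Trib3 had r = 0.745 and rho = 0.839 (permutation p = 0.00399 and 0.00096; adjusted 0.0199 and 0.0096), with r = 0.761 without osteosarcomas 5 and 6. Within the 6 tumours whose identifiers start with m the values were r = 0.916 and 0.841 (exact permutation p = 0.00972 and 0.0653). The c tumours (4) and o tumours (2) were too few for a value of their own.

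The other 8 pairs did not pass. Hspa5 and Hsp90b1, which share the ERSE, had r = -0.0735 and rho = -0.105 (adjusted permutation p = 0.816 and 0.802). Hspa5 had r = 0.11 and rho = 0.287 with Xbp1, r = -0.129 and rho = 0.189 with Ddit3 and r = 0.272 and rho = 0.238 with Col1a1 (adjusted permutation p for r of 0.809, 0.809 and 0.601). Creb3l1 and Col1a1 had r = 0.542 and rho = 0.336 (permutation p = 0.0714 and 0.286; adjusted 0.179 and 0.595); this rests on osteosarcomas 4 and 8, without which r was -0.14. Creb3l2 and Sec23a had r = 0.624 and rho = 0.524 (permutation p = 0.0275 and 0.0833; adjusted 0.0917 and 0.278), and r was 0.296 without osteosarcomas 1 and 4. Creb3l1 and Sec24d had r = 0.259 and rho = 0.0839, and Derl3 and the plasma cell gene Jchain r = 0.344 and rho = 0.329 (adjusted permutation p = 0.601 and 0.544 for r). Osteosarcoma 4 had both the highest Derl3 (265) and the highest Jchain (2803). Derl3 passed the filter through that array alone, so its high value there is no support for a relation. Of the 8 listed plasma and B cell markers, 3 were measured.

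**Figure D5:**
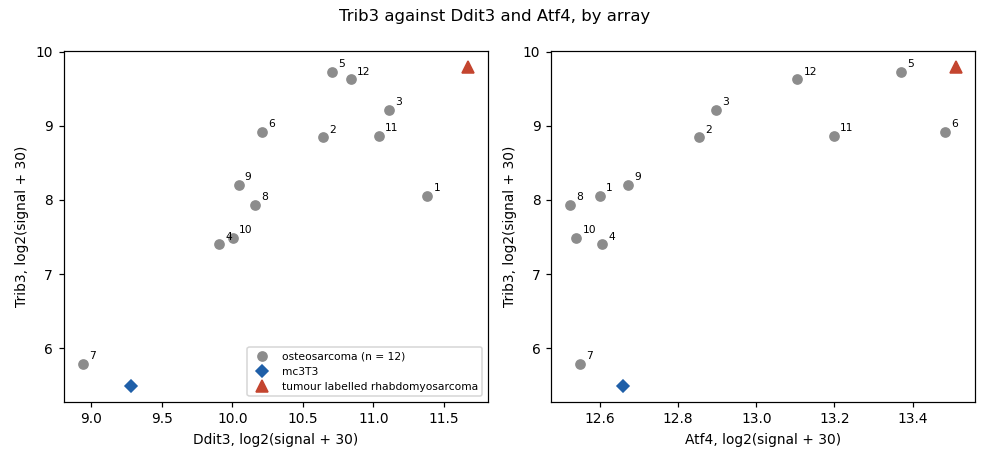
Trib3 against Ddit3 (left) and Atf4 (right), each on the log2(signal + 30) scale; grey points are osteosarcomas with their numbers, the blue diamond mc3T3 and the red triangle the tumour labelled rhabdomyosarcoma. Across the osteosarcomas r was 0.774 and 0.745; osteosarcoma 7 lies beside mc3T3 at the low end of Trib3.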

How the data were processed

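Total RNA from 14 samples was hybridised to Affymetrix mouse arrays. The deposited values are linear intensity signals, 1 per probe set, which the authors made with GCOS (per the submitters' processing notes); the software version, background settings and detection calls are not used here. In each array the mean signal after trimming 2% at each end was 500.0, so the arrays were already scaled, and depth does not apply; the number of arrays limits precision. No columns were identical, and the highest correlation between arrays was 0.954.

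Of 45101 probe sets, 64 were controls, 34958 had 1 gene symbol in the platform annotation, 932 had several and 9211 had none; none was named from several. Signals were taken as log2(signal + 30). Probe sets with at least 200 units on at least 1 array were kept (22479), and each gene was represented by the brightest (11815 genes). Fold changes were tested with limma 3.58.1 in R 4.3.3, in 1 model of 3 groups (12 osteosarcomas, mc3T3, the tumour labelled rhabdomyosarcoma; 11 residual degrees of freedom), with two-sided p-values adjusted by Benjamini-Hochberg; genes were called where the adjusted p was under 0.05 and the log2 change was 1 or more. The fit was checked on data with known changes. Permutation tests used scipy 1.17.1. All 36 genes were named, and for other lists up to 3 called genes of the largest change; exceptions are stated. The members, lists and pairs were chosen with earlier results of these data known. Alternatives were other offsets, filters, normalizations, probe set rules and subsets of osteosarcomas; those for the counts outside the range of the osteosarcomas were chosen after seeing the data. Protein sequences were not analysed here.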

Additional observations from a re-analysis of the deposited data

How the results depend on the processing

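No paired analysis was possible because the labels give no replicate numbers that the groups share, and 2 of the 3 groups hold 1 array. The count of members higher in osteosarcoma than in mc3T3, 2 in the report, was 1 with no filter on low signals, 0 with the osteosarcomas of c identifiers alone, and 1 without osteosarcomas 6 and 9, the pair with the highest muscle markers. Leaving out 1 osteosarcoma at a time gave 1 to 3: it was 3 without osteosarcoma 7, where Trib3 was called, and 1 without osteosarcoma 2, 3, 5, 6, 8 or 10. Dnajb11 kept its call in 13 of 25 alternatives (adjusted p = 0.0202 to 0.199, limma), Atf6 in 24 of 25 (0.000635 to 0.0747) and Creb3l1 in the tumour labelled rhabdomyosarcoma in 25 of 25 (0.00244 to 0.0303). Derl1 was called in 6 alternatives and Trib3 in 3. With the m tumours alone, 0 of 10 gene pairs passed after adjustment, with 6 tumours in place of 12. Over all genes, the counts in osteosarcoma against mc3T3 went from 1015 higher and 541 lower to 448 and 124 with the c tumours alone, where those in the tumour labelled rhabdomyosarcoma went from 141 higher and 208 lower to 36 and 68; log2(signal + 1) gave 63 higher in place of 141. Of 72 differences of members, 9 turned sign under at least 1 alternative, and none of these was called. The number of members in which mc3T3 lay below every osteosarcoma went from 5 to 13 with the m tumours alone and 10 with the c tumours alone. The number in which it lay above them went from 6 to 8 with either subset. A subset of the tumours spans the same range or a narrower one, so such counts cannot fall. The shares of all genes in these subsets were not counted. Depth has no counterpart on arrays; with 1 array, neither mc3T3 nor the tumour labelled rhabdomyosarcoma has a spread of its own.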
